A study of Homo sapiens with 12 samples.

Results

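Acute phase proteins are secreted plasma proteins whose output changes during infection and tissue injury. The 9 examined here are SERPINA3, LCN2, LRG1, SAA1, SAA2, SERPINA1, HP, ORM1 and CP. They were taken by name from the 20375 genes measured by RNA sequencing in PE/CA-PJ41 cells, a human oral squamous cell carcinoma line, and all 9 were found. In 4 libraries the cells had received platelet-rich plasma (PRP) at 10% for 48 h, in 4 human plasma at 10% for 48 h, and 4 came from untreated cells (control), for which the labels give no culture time. PRP is plasma in which platelets have been concentrated. The labels name 1 cell line and no genetic change, and say neither how many donors gave the plasma nor whether each library had a culture of its own. The p-values therefore describe library-to-library spread, part or all of which may be technical.

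The acute phase response is best known from the liver, where interleukins released by macrophages reach hepatocytes and act through STAT3, C/EBP factors and NF-kB on the genes of secreted proteins. Barrier epithelia make several of the same proteins locally. SERPINA3 (alpha-1-antichymotrypsin) and SERPINA1 (alpha-1-antitrypsin) are inhibitors of neutrophil serine proteases. LCN2 (lipocalin-2) withholds iron from bacteria by binding their siderophores, HP (haptoglobin) binds free haemoglobin, CP (ceruloplasmin) is a copper-carrying ferroxidase, and ORM1 (orosomucoid) carries small lipophilic molecules. SAA1 and SAA2 encode serum amyloid A, an apolipoprotein of high-density lipoprotein, and LRG1 is a leucine-rich glycoprotein that modulates TGF-beta signalling in vessels.

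Several members share a chromosome. In GENCODE coordinates on GRCh38, SERPINA1 (chr14:94376747-94390693) and SERPINA3 (chr14:94612377-94624055) lie on the same one, as do SAA2 (chr11:18239223-18248643) and SAA1 (chr11:18266174-18269977), and as do ORM1 (chr9:114323056-114326475) and LCN2 (chr9:128149071-128153455). CP is at chr3:149162410-149222055, HP at chr16:72054592-72061055 and LRG1 at chr19:4536409-4540474. All are annotated as protein-coding.

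RefSeq promoter windows on GRCh38.p14, from 250 bases before to 50 bases after a transcription start, were available for 5 of the 9 members: LCN2, LRG1, SERPINA3, SERPINA1 and ORM1. Those of LCN2, LRG1 and SERPINA3 are shown, since these 3 had the highest TPM among the members that rose. They are written 5′ to 3′ on the gene's strand. Capitals mark matches on either strand to 4 motifs: the NF-kB consensus, a looser NF-kB form (GGGA, then 4 bases of any kind, then CC), the palindromic STAT form TTCCNGGAA and a C/EBP form TTNNGCAA. The windows are chr9:128149203-128149502 on the plus strand for LCN2, chr19:4539987-4540286 on the minus strand for LRG1 and chr14:94612141-94612440 on the plus strand for SERPINA3.
LCN2: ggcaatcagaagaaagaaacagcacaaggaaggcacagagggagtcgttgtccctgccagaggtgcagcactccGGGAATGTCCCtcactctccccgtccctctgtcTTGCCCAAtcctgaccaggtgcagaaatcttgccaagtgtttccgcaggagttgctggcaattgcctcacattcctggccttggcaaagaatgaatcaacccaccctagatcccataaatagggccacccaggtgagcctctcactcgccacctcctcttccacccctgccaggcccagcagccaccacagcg
LRG1: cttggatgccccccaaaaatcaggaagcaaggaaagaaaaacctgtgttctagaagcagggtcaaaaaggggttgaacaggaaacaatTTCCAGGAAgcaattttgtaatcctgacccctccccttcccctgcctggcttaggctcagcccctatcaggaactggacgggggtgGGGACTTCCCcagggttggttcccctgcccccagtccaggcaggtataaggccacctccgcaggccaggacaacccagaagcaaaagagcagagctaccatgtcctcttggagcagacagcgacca
SERPINA3: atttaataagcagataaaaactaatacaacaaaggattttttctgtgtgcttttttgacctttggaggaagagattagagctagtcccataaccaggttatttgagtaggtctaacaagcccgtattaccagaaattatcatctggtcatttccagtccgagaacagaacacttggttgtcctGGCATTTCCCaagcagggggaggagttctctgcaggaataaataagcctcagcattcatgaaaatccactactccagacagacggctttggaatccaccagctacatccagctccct

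The LCN2 window held the NF-kB consensus on the minus strand at positions -175 to -166 from the start, overlapped by matches to the looser form on both strands, and a C/EBP match at -143 to -136. In LRG1 the NF-kB consensus and the looser form coincided at -76 to -67, and the STAT form lay at -162 to -154. The SERPINA3 window held only the looser NF-kB form, at -67 to -58. Its 10 letters, GGCATTTCCC, also stood in the ORM1 window, at -112 to -103. Neither of 2 windows for SERPINA1 matched any of the 4 motifs. Over 34796 distinct windows of the same length, 5.91% held the NF-kB consensus, 25.6% the looser form, 1.15% the STAT form and 10.5% the C/EBP form. These matches describe letters and were not tested as binding sites.

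SAA1 and SAA2 are near-copies, and reads from one can be assigned to the other. Their GENCODE coding sequences are 369 bases each and differ at 11 of them (97% identity), with an identical run of 186 bases. The 120 bases that hold 10 of the 11 differences, from base 204 to base 323 of the coding sequence, are printed with the differing bases in capitals.
SAA1: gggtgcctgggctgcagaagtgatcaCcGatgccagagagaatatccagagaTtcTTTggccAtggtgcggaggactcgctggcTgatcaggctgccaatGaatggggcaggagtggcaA
SAA2: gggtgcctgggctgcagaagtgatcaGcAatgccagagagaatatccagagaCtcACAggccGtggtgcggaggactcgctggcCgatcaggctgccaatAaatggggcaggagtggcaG

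Of the distinct 31-base words in SAA1 transcripts, 53.2% also occurred in SAA2 transcripts. ORM1 shares 49.8% of its words with ORM2, and HP shares 15.9% with HPR, so their reads could in principle be assigned to a near-copy too. Hardly any such reads were there to assign. HP and HPR had 0 reads in every library, ORM1 had at most 1 and ORM2 at most 3. No word of 31 bases was shared by SERPINA3 and SERPINA1 (0 of 5135).

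Total estimated reads ran from 36943548 to 41976136 in PRP, from 36258955 to 41946780 in plasma and from 40166503 to 41531218 in control. All 10 markers of squamous epithelium averaged at least 1 TPM (a level per transcript length, scaled to the same total in every library). Their summed level was 14260 to 15840 TPM in PRP, 14230 to 15560 in plasma and 11620 to 13070 in control. These markers did not move together. KRT5 averaged 7677 TPM in PRP, 7645 in plasma and 4784 in control, and KRT14 was 3273, 3204 and 2465 TPM in the same order. KRT17 went the other way, at 1647 TPM in PRP, 1793 in plasma and 2696 in control. The treated means of KRT16, SFN, DSG3 and CDH1 were also below control. Liver, leukocytes and platelets are the usual sources of these proteins in blood. Of 12 hepatocyte markers 1 averaged at least 1 TPM (CYP2E1), APOB, APOC3, TTR and FGA had 0 reads in every library, and the sum was 4.93 to 6.24 TPM in PRP, 5.46 to 6.46 in plasma and 4.47 to 6.01 in control. Of 10 neutrophil markers 1 averaged at least 1 TPM (CXCR2), CSF3R, MPO and ELANE had 0 reads, and the sum was 2.61 to 3.14 TPM in PRP, 2.42 to 3.08 in plasma and 1.48 to 2.85 in control. The 10 platelet markers summed to 5.62 to 8.14 TPM in PRP, 6.34 to 8.65 in plasma and 5.43 to 6.90 in control, with NRGN alone above 1 TPM and 0 reads for PF4, GP9 and TREML1. Below 1 TPM, GP1BB averaged 0.476 TPM in PRP, 0.178 in plasma and 0 in control, with at most 18.3 reads in a library. ITGA2B went the other way, at 0.320 TPM in PRP, 0.446 in plasma and 0.561 in control. The source of the GP1BB reads was not tested. The 9 fibroblast markers, 3 of them above 1 TPM, summed to 21.1 to 22.6 TPM in PRP, 20.02 to 26.1 in plasma and 21.8 to 32.5 in control.

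The macrophage list moved with the treatments, at 73.2 to 85.4 TPM in PRP, 73.6 to 89.9 in plasma and 40.9 to 51.9 in control. Of its 10 genes 3 averaged at least 1 TPM (CD68, CD14 and LYZ), FCGR1A and AIF1 had 0 reads in every library, and CD163 had at most 2 reads. CD68, a lysosomal protein found outside macrophages too, averaged 69.7 TPM in PRP, 74.1 in plasma and 42.6 in control and made up most of that sum. CD14 was also higher in the treated groups, at a mean of 5.49 TPM in PRP, 4.89 in plasma and 1.79 in control. MARCO moved the same way below 1 TPM, at 0.696 TPM in PRP, 0.433 in plasma and 0.1655 in control. LYZ changed little. The part of the macrophage list in the results below was not tested.

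The comparisons with untreated cells ask what each blood product does to the tumour cells. SERPINA3, LRG1, LCN2, SAA1 and SAA2 were higher in PRP-treated and in plasma-treated cells than in control, with ratios of mean TPM between 2.07 and 5.65. CP was higher with plasma and did not pass with PRP, SERPINA1 passed in neither comparison, and HP and ORM1 were practically undetected. Thus 5 of the 9 members rose with PRP and 6 of 9 with plasma, and none fell (0 in each). Each value is a total over a whole culture, so more cells expressing a gene and more RNA per cell cannot be told apart. The test was limma-trend on log2(TPM + 1), with Benjamini-Hochberg adjustment over the 12517 genes that reached 1 TPM in 4 or more libraries and a threshold of 0.05. Over all genes tested, 21.7% were called higher in PRP and 31.5% lower, and 20.3% were called higher in plasma and 29% lower. That split depends on scaling: 2711 of 6652 calls were higher with PRP and 2544 of 6173 with plasma, against 3534 of 6550 and 3309 of 6112 with each library centred on its median. The members that rose stood wholly above the control libraries, as did 19% of all genes tested with PRP and 18.2% with plasma. Of the 9 members 7 passed the low-value filter. SAA1 reached 1 TPM in 9 libraries and SAA2 in 10, so both passed it mainly through the treated groups, where they were high. The comparisons with control share the same 4 control libraries, so their likeness is not independent evidence.

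**Figure D1:**
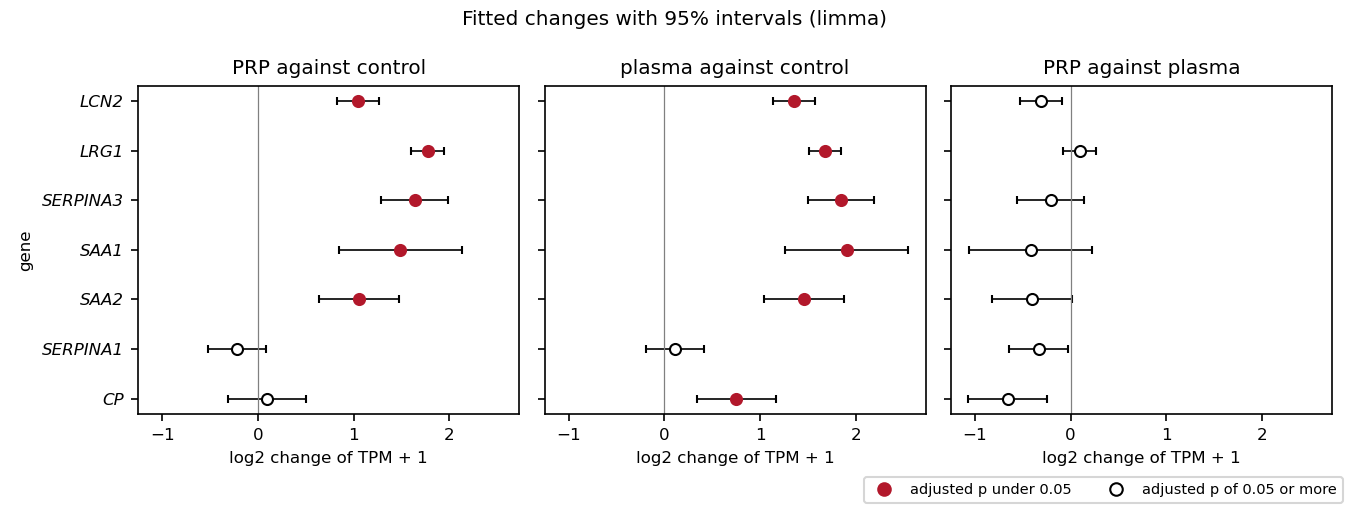
Fitted log2 change of TPM + 1 for the 7 members that passed the low-value filter (rows), with 95% intervals, for PRP against control, plasma against control and PRP against plasma. Filled points have an adjusted p under 0.05: 5 members lie to the right of 0 in PRP against control, 6 in plasma against control, and no point is filled in PRP against plasma.

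Among the protease inhibitors, SERPINA3 was 8.01, 7.27, 7.29 and 7.11 TPM in PRP replicates 1 to 4, 10.2, 12.9, 6.53 and 6.60 TPM in plasma, and 1.68, 1.84, 1.92 and 1.41 TPM in control. Every treated library stood above every control library, and plasma replicates 1 and 2 stood above the other plasma libraries. Against control the log2 change was 1.64 ± 0.16 with PRP (SE, n = 4 libraries a group, limma adjusted p = 1.87e-06), a 4.33-fold ratio of means. With plasma it was 1.85 ± 0.16 (limma adjusted p = 7.84e-07), a 5.30-fold ratio. The estimated reads behind these levels were 240.8 to 268 in PRP, 239 to 402.6 in plasma and 51.5 to 68.2 in control.

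SERPINA1, the better known inhibitor of neutrophil elastase, passed in neither comparison. It was 4.60, 5.18, 3.16 and 3.73 TPM in PRP replicates 1 to 4, 6.99, 6.34, 4.27 and 4.57 TPM in plasma, and 5.08, 4.81, 4.70 and 5.23 TPM in control. Control libraries lay within the span of the treated ones. The log2 change was -0.22 with PRP (95% interval -0.53 to 0.09, limma adjusted p = 0.21) and 0.11 with plasma (95% interval -0.19 to 0.42, limma adjusted p = 0.532). Both intervals lie below the changes fitted for SERPINA3, 1.64 and 1.85. The difference between these 2 genes was not itself tested.

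LCN2, the siderophore-binding lipocalin, was the most abundant member in every library. It was 89.8, 83.8, 89.6 and 85.9 TPM in PRP replicates 1 to 4, 128, 125, 96.4 and 90.9 TPM in plasma, and 48.8, 42.3, 38.4 and 38.8 TPM in control. All treated libraries exceeded all control libraries, and the 3 groups did not overlap at all, with plasma highest. By mean level it ranked 1939th of all genes in PRP, 1520th in plasma and 3932nd in control. The log2 change was 1.04 ± 0.10 with PRP (SE, limma adjusted p = 1.74e-06), a 2.07-fold ratio of means, and 1.36 ± 0.10 with plasma (limma adjusted p = 2.03e-07), a 2.61-fold ratio. LCN2 made up 69.6 to 70.8% of the summed TPM of the 9 members in PRP, 70.2 to 72% in plasma and 73.1 to 76.2% in control. That sum was 120.4 to 128.7 TPM in PRP, 126.3 to 179.2 in plasma and 50.4 to 66.6 in control.

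LRG1, the leucine-rich glycoprotein, had the narrowest relative spread of the 7 tested members in PRP and in plasma. It was 16.1, 16.1, 16.1 and 15.5 TPM in PRP replicates 1 to 4, 16.3, 16.4, 13.2 and 13.9 TPM in plasma, and 4.17, 4.27, 3.44 and 3.998 TPM in control. Treated and control libraries were wholly apart, while PRP and plasma overlapped. The log2 change was 1.77 ± 0.08 with PRP (SE, limma adjusted p = 2.54e-09), a 4.02-fold ratio of means. With plasma it was 1.68 ± 0.08 (limma adjusted p = 4.22e-09), a 3.76-fold ratio.

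The serum amyloid A genes rested on few reads. SAA1 was 4.82, 3.84, 5.55 and 3.601 TPM in PRP replicates 1 to 4, 6.68, 9.56, 5.525 and 4.12 TPM in plasma, and 2.98, 0.905, 0.282 and 0.418 TPM in control. Control replicate 1 stood well above the other control libraries, though below every treated one. The reads were 25.9 to 39.3 in PRP, 29.3 to 60.9 in plasma and 2 to 22.9 in control. The log2 change was 1.49 ± 0.30 with PRP (SE, limma adjusted p = 0.000894) and 1.90 ± 0.30 with plasma (limma adjusted p = 0.000147). The ratio of means was 3.88 with PRP and 5.65 with plasma, and without control replicate 1 it was 8.32 and 12.1.

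SAA2 was 3.04, 2.78, 2.77 and 3.17 TPM in PRP replicates 1 to 4, 6.59, 3.35, 4.74 and 2.90 TPM in plasma, and 0.830, 1.14, 0.382 and 1.37 TPM in control. Again no treated library fell within the control range. The log2 change was 1.06 ± 0.19 with PRP (SE, limma adjusted p = 0.000433) and 1.46 ± 0.19 with plasma (limma adjusted p = 3.43e-05). Its effective length, by which reads are divided, was greater by 0.23 (log2) in PRP and 0.21 in plasma than in control. This rested on control replicate 4, with an effective length of 211.1 bases against 453.4 to 580.3 in the other control libraries, and without it the differences were -0.10 and -0.12. From estimated reads, limma's voom gave larger log2 changes. They were 2.38 for SAA1 and 2.05 for SAA2 with PRP, and 2.90 and 2.53 with plasma.

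Because the split of reads between the 2 SAA genes is an estimate, their sum was also fitted. SAA1 took between 37.6 and 54.1% of their joint reads in PRP libraries, 33.7 to 59.1% in plasma and 25 to 65.5% in control. The summed level was 7.86, 6.62, 8.33 and 6.77 TPM in PRP replicates 1 to 4, 13.3, 12.9, 10.3 and 7.03 TPM in plasma, and 3.81, 2.04, 0.665 and 1.78 TPM in control. All treated libraries stood above all control libraries in the sum. The log2 change of the sum was 1.54 ± 0.25 with PRP (SE, limma adjusted p = 0.000171) and 2.01 ± 0.25 with plasma (limma adjusted p = 2.13e-05).

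CP, the ferroxidase, was higher with plasma. It was 2.33, 1.48, 2.22 and 2.54 TPM in PRP replicates 1 to 4, 4.60, 4.48, 3.39 and 3.33 TPM in plasma, and 3.14, 2.505, 1.30 and 1.17 TPM in control. All 4 plasma libraries exceeded all control libraries, whereas the PRP libraries lay inside the wide control range. With plasma the log2 change was 0.75 ± 0.19 (SE, limma adjusted p = 0.00523), a 1.95-fold ratio of means. With PRP it was 0.09 (95% interval -0.32 to 0.51, limma adjusted p = 0.7), and it turned to -0.02 without control replicate 3 and to -0.05 without control replicate 4.

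HP had 0 reads in all 12 libraries, which allows up to 3 reads per library, or 0.0715 to 0.0827 CPM (reads scaled to a common library total). These limits cover counting error only. ORM1 had 1 read in control replicate 2 and 0 in the other libraries. Their near-copies were as scarce, with 0 reads for HPR and at most 3 reads for ORM2 in a library. Both were below the low-value filter. HP could not be fitted, and ORM1, fitted with no filter, had a log2 change of -0.03 with PRP and with plasma (limma adjusted p = 0.403 and 0.415).

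**Figure D2:**
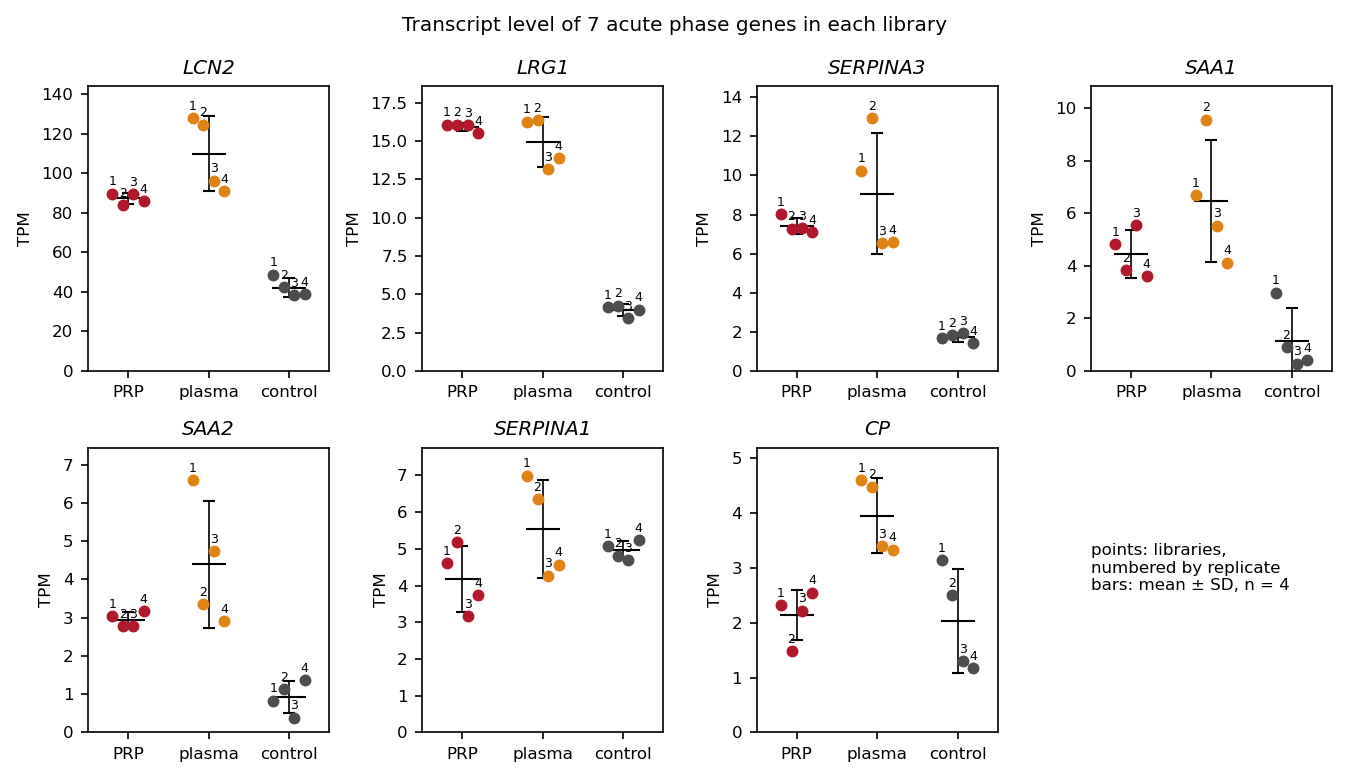
TPM of the 7 members that passed the low-value filter in PRP, plasma and control libraries (points, numbered by replicate), with mean and SD (bars, n = 4, cut at 0). LCN2, LRG1, SERPINA3, SAA1 and SAA2 sit above all control points in both treated groups, CP does so in plasma, and SERPINA1 overlaps in all 3 groups.

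The order of levels within a library differed between groups. In PRP it was LCN2, LRG1, SERPINA3, SAA1, SERPINA1, SAA2 and CP by mean TPM, and in plasma LCN2, LRG1, SERPINA3, SAA1, SERPINA1, SAA2 and CP, so both treated groups gave 1 order. In control it was LCN2, SERPINA1, LRG1, CP, SERPINA3, SAA1 and SAA2. Of the neighbours in PRP, the ranges of SAA1 and SERPINA1 overlapped (3.601 to 5.55 and 3.16 to 5.18 TPM), as did those of SERPINA1 and SAA2 (2.77 to 3.17 TPM), whereas LCN2, LRG1 and SERPINA3 were apart from their neighbours. In plasma LCN2 and LRG1 were apart from their neighbours, and the ranges of SERPINA3, SAA1, SERPINA1, SAA2 and CP ran into one another. In control LCN2, SERPINA1 and LRG1 were apart from their neighbours, and the ranges of CP, SERPINA3, SAA1 and SAA2 overlapped.

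The spread among libraries also varied by group. The coefficient of variation was 3.37% in PRP, 17.3% in plasma and 11.4% in control for LCN2, 1.66% in PRP, 11% in plasma and 9.29% in control for LRG1, and 5.38% in PRP, 34.1% in plasma and 13% in control for SERPINA3. The other members had other orders. Control was widest for SAA1 (20.3% in PRP, 35.7% in plasma, 109% in control), SAA2 (6.63% in PRP, 37.7% in plasma, 45.8% in control) and CP (21.5% in PRP, 17.2% in plasma, 46.9% in control), and narrowest for SERPINA1 (21.5% in PRP, 24% in plasma, 4.95% in control). Plasma replicates 1 and 2 were the 2 highest plasma libraries for 6 of the 7 members, SAA2 being the exception with replicates 1 and 3. Replicate 2 had clearly fewer total reads than the rest of the plasma group, at 36258955. Replicate 1, at 41752302, was close to replicate 3, at 41946780, and replicate 4, at 41823019. The part of total reads in this order was not tested.

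PRP was then compared with plasma, to ask what concentrated platelets add to plasma. No member passed, with 0 of 9 called at an adjusted p under 0.05 by limma-trend and 0 by voom on estimated reads. Of all genes tested 0.0639% were called. Before adjustment 3 members, LCN2, SERPINA1 and CP, were under 0.05 in the limma fit, as were 7.98% of all genes tested. For LCN2 and CP every PRP library lay below every plasma library, as was so for 2.59% of all genes tested.

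The fitted log2 difference of PRP minus plasma was -0.66 for CP (95% interval -1.07 to -0.25, limma adjusted p = 0.363), with means of 2.14 ± 0.46 TPM in PRP and 3.95 ± 0.68 in plasma (SD, n = 4 each). For LCN2 it was -0.31 (95% interval -0.53 to -0.09, limma adjusted p = 0.424), with means of 87.3 ± 2.94 TPM in PRP and 109.9 ± 19.0 in plasma. The differences of SAA1 (-0.42, 95% interval -1.06 to 0.23), SAA2 (-0.41, -0.82 to 0.01) and SERPINA1 (-0.33, -0.64 to -0.03) were also negative, with limma adjusted p of 0.789, 0.639 and 0.578. SERPINA3 differed by -0.21 (95% interval -0.56 to 0.14) and LRG1 by 0.10 (95% interval -0.08 to 0.26), with limma adjusted p of 0.816 and 0.83. The interval of LRG1 leaves room for differences of at most 0.26 on the log2 scale, and that of SAA1 for a fall of up to -1.06. Since CP was called with plasma and not with PRP, its value in this comparison is the test of that contrast, and it did not pass.

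**Figure D3:**
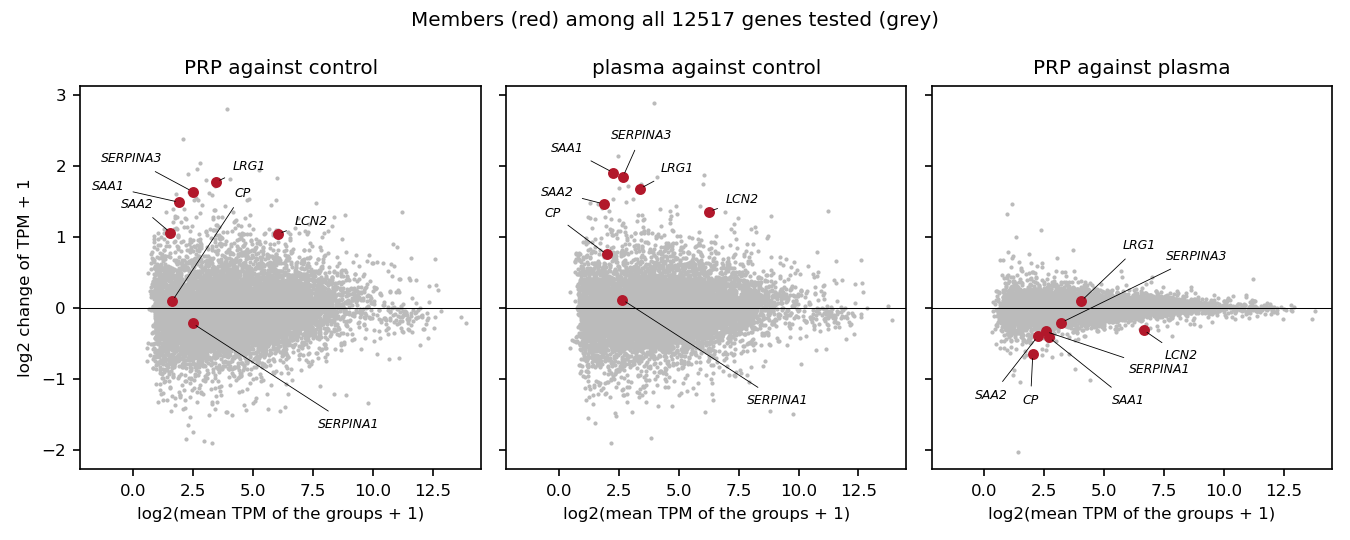
Log2 change of TPM + 1 (vertical) against log2 of the mean TPM of the groups plus 1 (horizontal) for all 12517 genes tested (grey) and the 7 members tested (red), for PRP against control, plasma against control and PRP against plasma. LRG1, SERPINA3, SAA1, SAA2 and LCN2 lie at changes of 1.04 or more in both comparisons with control, SERPINA1 lies near 0, and in PRP against plasma all 7 lie between -0.66 and 0.10.

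Other acute phase plasma proteins were mostly below the filter in these cells. Of 23 on that list 5 were tested, and 3 rose with PRP and 4 with plasma, with none lower. Their median log2 change was 0.55 with PRP and 0.76 with plasma, against -0.06 and -0.05 over all genes. Beside the counts of this list and those below stand the shares of all genes tested. These were 21.7% higher and 31.5% lower with PRP, and 20.3% higher and 29% lower with plasma. All 5 genes tested belong to the complement system, so any riser had to be a complement gene. SERPING1, a complement regulator, passed in neither comparison, at log2 changes of -0.23 with PRP and 0.03 with plasma (limma adjusted p = 0.193 and 0.874). CFB, factor B of the alternative pathway, was 11.5 ± 0.59 TPM in PRP, 14.9 ± 3.57 in plasma and 5.32 ± 0.80 in control (limma adjusted p = 3.43e-05 and 3.5e-06 against control). C1R, a protease of the classical pathway, was 19.0 ± 0.92 TPM in PRP, 21.4 ± 2.14 in plasma and 12.1 ± 1.505 in control (limma adjusted p = 3.85e-05 and 6.38e-06). C3, the central complement component, was 2.44 TPM in PRP, 3.09 in plasma and 1.36 in control, and C1S, the partner of C1R, was 2.89 TPM in PRP, 3.33 in plasma and 2.15 in control. C3 rose with both and C1S with plasma, at limma adjusted p of 0.0272 for C3 with PRP, 0.00493 for C3 with plasma and 0.0103 for C1S. The C3 call with PRP was lost without control replicate 2, control replicate 4, PRP replicate 1 or PRP replicate 2. It was also lost without the 3 libraries numbered 1 and with no low-value filter (limma adjusted p of 0.0524 to 0.0859 in these fits). The C3 call with PRP held in 16 of 22 alternatives. Over all 22 its log2 change ran from 0.45 to 1.84, against 0.55 as reported, and its limma or voom adjusted p from 0.000213 to 0.0859. With plasma the C3 call held in all 22, at log2 changes of 0.62 to 2.18. C1S with PRP did not pass as reported (limma adjusted p = 0.0527). It passed in 9 of 22 alternatives, among them median centring, at a limma adjusted p of 0.0167. C3, C1S and SERPING1 were named after their values were seen. CRP had 0 reads in every library. Of 8 proteins whose plasma level falls in the acute phase only TF (transferrin) was tested, at 26.1 TPM in PRP, 26.0 in plasma and 23.8 in control, and it did not pass (limma adjusted p = 0.112 with PRP and 0.13 with plasma). With median centring it did, at limma adjusted p of 0.00684 and 0.0109, and without control replicate 1, at 0.0378 and 0.045. TF also passed from estimated reads. The voom adjusted p were 0.00177 and 0.00291 (median of ratios) and 0.00685 and 0.00878 (total reads).

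Among cytokines, receptors and transcription factors that drive acute phase genes, 35 of 38 were tested. With PRP 15 rose and 8 fell, and with plasma 17 rose and 6 fell, with medians of 0.12 and 0.15. NFKBIZ, an NF-kB cofactor needed for induction of LCN2 in mouse cells, was 6.99 ± 0.11 TPM in PRP, 8.23 ± 0.64 in plasma and 3.54 ± 0.28 in control (limma adjusted p = 6.02e-07 and 1.06e-07 against control). IL1A, an epithelial alarm cytokine, was 13.8 ± 1.19 TPM in PRP, 13.1 ± 2.30 in plasma and 6.35 ± 1.51 in control (limma adjusted p = 3.24e-05 and 7.76e-05). IL6 was 8.23 ± 1.80 TPM in PRP, 8.46 ± 0.71 in plasma and 3.96 ± 1 in control (limma adjusted p = 0.000167 and 0.000124). Other cytokines of the list fell. IL11 was 1.33 TPM in PRP, 1.29 in plasma and 4.29 in control (limma adjusted p = 3.14e-05 and 3.03e-05). LIF was 3.89 TPM in PRP, 4.43 in plasma and 6.90 in control (limma adjusted p = 0.017 and 0.0452). IL1RN, the interleukin-1 receptor antagonist, rose to 83.5 TPM in PRP and 73.3 in plasma, against 38.6 in control (limma adjusted p = 3.87e-09 and 2.3e-08). STAT3, which carries the interleukin-6 signal to the nucleus, was 117 TPM in PRP, 124.5 in plasma and 138 in control (limma adjusted p = 0.0804 and 0.271), and IL6ST, the shared receptor chain, fell to 48.1 TPM in PRP and 49.8 in plasma, against 58.5 in control (limma adjusted p = 0.00422 and 0.0137). STAT3 passed as lower with PRP from estimated reads scaled by their total (voom adjusted p = 0.0266), without control replicate 3 (limma adjusted p = 0.0418) and without control replicate 4 (limma adjusted p = 0.0376). SOCS3, on the same list, rose to 14.6 TPM in PRP and 15.8 in plasma, against 10.8 in control (limma adjusted p = 0.000354 and 5.9e-05). IL1B, TNF, IL11, LIF, IL1RN, STAT3, IL6ST and SOCS3 were named after their values were seen. Of these only STAT3 and IL6ST were refitted gene by gene under the alternatives.

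Of 8 receptors and partners of the members tested, 1 was higher and 2 were lower in each comparison with control. Neither count exceeds the share over all genes, 21.7% higher and 31.5% lower with PRP and 20.3% and 29% with plasma. The medians were -0.10 with PRP and -0.08 with plasma. From estimated reads scaled by the median of ratios, these medians turned to 0.01 and 0.04. With that scaling, with total reads and with median centring, 2 were higher and 2 lower in each comparison. HMOX1, which degrades the haem that haptoglobin helps to clear, fell to 7.05 ± 1.082 TPM in PRP and 7.66 ± 1.01 in plasma, against 12.15 ± 1.247 in control (limma adjusted p = 8.96e-05 and 0.000411). TGFBR2, a TGF-beta receptor, fell to 43.4 ± 1.49 TPM in PRP and 46.1 ± 1.32 in plasma, against 52.55 ± 0.96 in control (limma adjusted p = 5.19e-05 and 0.00135). The gene called higher in the main fit was MMP9, whose protein binds lipocalin-2. It was 6.04 TPM in PRP, 2.29 in plasma and 0.348 in control, so it passed the low-value filter only through the treated groups, where it was high. It was named after its values were seen and was the only tested gene of the list called between PRP and plasma, with a log2 difference of 1.10 (limma adjusted p = 0.00544). Without the 3 libraries numbered 1 its adjusted p was 0.107. The LCN2 receptor SLC22A17 was 6.01 TPM in PRP, 5.26 in plasma and 5.18 in control and did not pass against control (limma adjusted p = 0.113 and 0.864). With median centring it passed with PRP, at a limma adjusted p of 0.0358. From estimated reads it also passed with PRP, at voom adjusted p of 0.00895 (median of ratios) and 0.0142 (total reads).

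Of 15 epithelial protease inhibitors tested, 8 rose and 2 fell in each comparison with control, at medians of 0.27 with PRP and 0.34 with plasma. SERPINB2 (plasminogen activator inhibitor 2) was 7.75 ± 0.85 TPM in PRP, 6.10 ± 0.44 in plasma and 2.61 ± 0.41 in control (limma adjusted p = 1.63e-07 and 2.45e-06 against control). SLPI, a secreted inhibitor of leukocyte elastase, was 76.85 ± 6.96 TPM in PRP, 76.2 ± 1.31 in plasma and 44.75 ± 1.47 in control (limma adjusted p = 7.68e-08 and 1.15e-07). SERPINB13 was 48.4 ± 3.24 TPM in PRP, 44.25 ± 4.11 in plasma and 31.7 ± 5.60 in control (limma adjusted p = 0.000204 and 0.00152). The 2 that fell were SERPINB5 (maspin) and CST6 (cystatin M), named after their values were seen, with log2 changes of -0.48 and -0.33 with PRP and -0.42 and -0.33 with plasma.

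Of 15 antimicrobial proteins 5 were tested and 2 rose in each comparison with control. S100A9, a subunit of calprotectin, was 24.25 ± 1.84 TPM in PRP, 25.65 ± 8.37 in plasma and 6.20 ± 0.68 in control (limma adjusted p = 8.82e-07 and 9.17e-07). The other was S100A8, its partner, at 1.45 TPM in PRP, 2.65 in plasma and 0.231 in control, with at most 17 reads in a library. S100A8 was named after its values were seen, and it passed the low-value filter only through the treated groups, where it was high. Of 10 other lipocalins 2 were tested. APOD, a lipid carrier, fell to 7.21 ± 0.67 TPM in PRP and 7.42 ± 0.83 in plasma, against 13.8 ± 0.47 in control (limma adjusted p = 1.13e-06 and 2.15e-06). APOM, a carrier of sphingosine-1-phosphate, was 6.63 ± 0.74 TPM in PRP and fell to 5.77 ± 0.91 in plasma, against 8.02 ± 0.84 in control (limma adjusted p = 0.0636 and 0.0042). The PRP value of APOM passed without plasma replicate 1 (limma adjusted p = 0.0345).

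**Figure D4:**
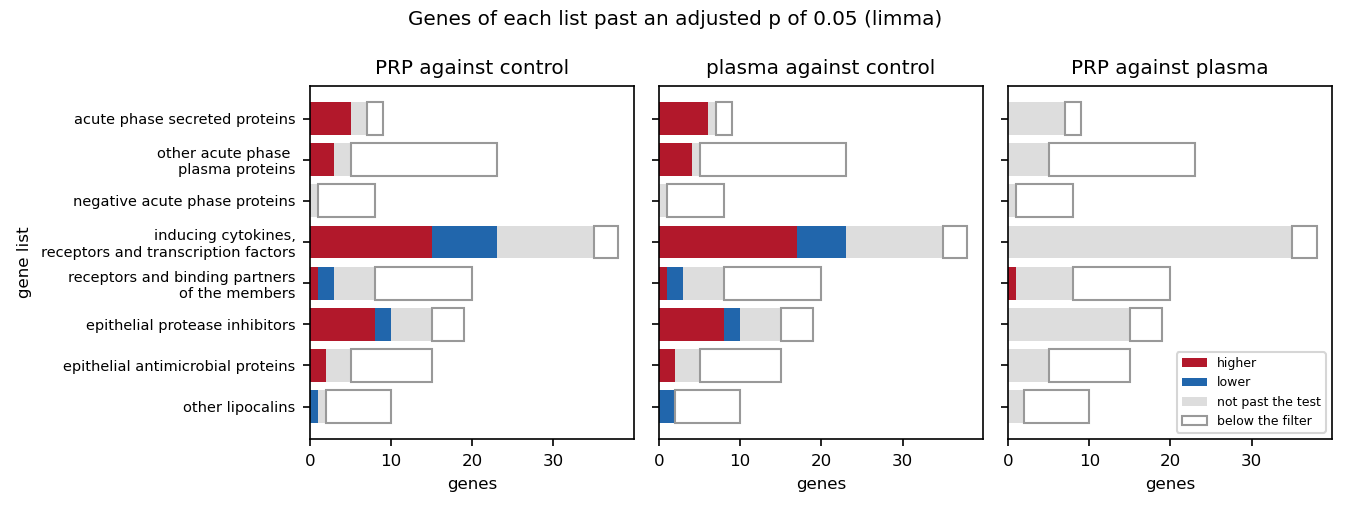
Number of genes (horizontal) of each list that were higher, lower or not past an adjusted p of 0.05 (limma) or below the low-value filter, for PRP against control, plasma against control and PRP against plasma. The acute phase secreted proteins have 5 and 6 higher in the comparisons with control, the inducer list has 15 and 17, and in PRP against plasma 1 gene in all, MMP9, is called.

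Genes whose profile over the 12 libraries was most like a member's were found by the root mean square difference between log2(TPM + 1) profiles, each centred on its own mean. The libraries fall into the study's groups, so these values mostly reflect group means. The nearest to LCN2 was CFB at 0.07, followed by MUC1 (0.13), a membrane mucin, and ZC3H12A (0.15), a ribonuclease that degrades cytokine messages. The nearest to LRG1 were the chemokine CCL20 (0.15), the keratin KRT6B (0.17) and CDKN2AIPNL (0.19). The nearest to SERPINA3 were S100A9 (0.14) and the chemokines CCL2 (0.15) and CXCL1 (0.16). SERPINA1, which passed in no comparison, was nearest to STEAP2 (0.14), ZMYND8 (0.14) and SMARCA2 (0.145).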

How the data were processed

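Polyadenylated RNA of 12 libraries, 4 per group, was captured and prepared with the Watchmaker mRNA kit per the labels' protocols. The submitters' processing notes name Salmon and hg38. Version, transcript set and strand setting of the quantification are not given in the sources used here. Per the file headers, the deposited values are TPM, estimated read counts and effective lengths for each gene, written with decimal commas. Recomputed TPM, from reads and effective lengths, came within 1% plus 0.01 TPM of the deposited value for all 20375 genes. Because of the decimal commas the estimated reads were not registered as counts. The main test was limma-trend (limma version 3.58.1 under R version 4.3.3) on log2(TPM + 1), over 12 libraries with 9 residual degrees of freedom. This was a choice, since the estimated reads could still be fitted. Limma's voom on the estimated reads was an alternative. The procedure was checked on simulated data. The log2(TPM + 1) scale understates changes of low genes, and TPM is relative to the other genes of a library.

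All 9 members are named. From each further list up to 3 genes were named, those with the largest change in plasma against control at an adjusted p under 0.05 and a mean of at least 5 TPM, and others are marked in the text. The members and lists were chosen with earlier results of these data known. Coordinates and coding sequences are from GENCODE 29, promoters from RefSeq.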

Additional observations from a re-analysis of the deposited data

Results flagged for a closer look

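A library that stands apart from the other 3 of its group was looked for in 24 sets of 4 values, the TPM of 7 members and the total reads in each of 3 groups, with Dixon's 95% limit on the gap. Chance passes that limit in about 1 set in 20, and 3 passed. LRG1 in PRP replicate 4 was 15.5 TPM, against 16.05 to 16.08 TPM in the other PRP libraries, and LRG1 in control was 3.44 to 4.27 TPM. Total estimated reads were 36943548 in PRP replicate 1, against 41872643 to 41976136 in the other PRP libraries. They were 36258955 in plasma replicate 2, against 41752302 to 41946780 in the other plasma libraries.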

How the results depend on the processing

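No alternative ended or added a call of a member in any of the 3 comparisons (21 to 23 alternatives a member). The count of higher members was 5 with PRP and 6 with plasma in each refit that left out 1 library, and 4 in both with a filter of 5 TPM, where 5 members were tested. The log2 change of CP with PRP, never called, was -0.048 without control replicate 4 and -0.019 without control replicate 3, reached 0.262 in the refits that left out 1 library (without control replicate 1), and was 0.378 from estimated reads with voom. The effective length of CP was greater in PRP by 0.14 (log2) than in control and by 0.18 than in plasma. In control libraries it ran from 2595 to 4052 bases. The part of effective length in the CP values was not tested. Between PRP and plasma no member was called under any alternative (0 each), with a lowest adjusted p of 0.137, for CP, while the calls over all genes, 8 as reported, ran from 1 to 16. Deviations of same-numbered libraries correlated above 0.1 in 5 of 12 pairs, and 5 of 12 libraries lay closest to their own number. The correlations ran from -0.067 to 0.304, and the 3 pairs numbered 1 were all above 0.1, at 0.152 to 0.304. These values do not settle whether the numbers mark pairs. The main fit did not take them as pairs. A replicate block gave 5 and 6 higher members and 0 between PRP and plasma. With the block STAT3 passed as lower with PRP (adjusted p = 0.000433) and plasma (0.00803), and TF as higher with PRP (0.0412). For genes outside the members the alternatives were applied after seeing the data. They were not applied gene by gene to SERPING1, IL1B, TNF, IL11, LIF, IL1RN or SOCS3, so how those results depend on the processing is not known. SLC22A17 with plasma, 0.02 as reported, was -0.035 without control replicate 2, -0.023 without plasma replicate 2 and -0.019 without the 3 libraries numbered 1, and 0.069 without control replicate 3. SAA1 and SAA2 have few reads in control, which limits their ratios.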

Other observations

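The SAA locus holds further genes with few reads. SAA4, which encodes the constitutive serum amyloid A, had 3, 3, 1 and 5 estimated reads in PRP replicates 1 to 4, 9, 3, 1 and 6.3 in plasma, and 1, 0, 0 and 0 in control. The read-through gene SAA2-SAA4 had 5.4, 2.1, 2.3 and 0 reads in PRP, 0, 0, 1.1 and 1.8 in plasma, and 0 in each control library. Both genes were below the filter and were not tested.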
